A study of Mus musculus with 12 samples.

Results

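The T cell receptor and CD3 chains were followed in Vg4+Vd4+ gamma delta T cells as 9 genes of the 45796 in the table. They were chosen by symbol: the receptor loci Tcrd, Tcrg, Tcrg-C2, Tcrb and Tcra, and the CD3 chains Cd3e, Cd3d, Cd3g and Cd247. The cells came from lymph nodes that drain the skin of C57BL/6 mice, with 3 libraries in each of 4 groups. NF-kB1-deficient mice received imiquimod cream or sham cream, and so did wild-type mice. Imiquimod activates Toll-like receptors and, rubbed on mouse skin, is a widely used model of psoriasis, and NF-kB1 (p105, processed to p50) is an NF-kB subunit. The labels give neither the allele of the deficiency, nor age, nor the length of treatment, nor whether each library stands for another mouse. The p-values therefore reflect the spread between libraries, pooled largely across genes, and that spread may be technical.

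A T cell recognises its target through a pair of variable chains, either gamma and delta or alpha and beta, which carry almost no signalling part of their own. The pair sits in the membrane with the CD3 epsilon, delta and gamma chains and a dimer of the zeta chain, encoded by Cd247, and phosphorylation of motifs in the tails of these partners starts signalling. In mice the gamma delta receptor of resting cells is known to be built mainly with epsilon and gamma chains and little or no CD3 delta. Gamma chain genes that use the Vg4 segment are joined to the Tcrg-C1 constant region. The labels name the cells of all 4 groups by these variable chains but not how they were isolated, so the presence of the receptor was set by the choice of cells.

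Each receptor gene is a long locus of separate segments, and the table mostly counts it as 1 unit. Tcrg spans chromosome 13, 19178042 to 19356476, and Tcrb spans chromosome 6, 40891296 to 41558371. Tcrd (chromosome 14, 53946073 to 54159198) lies inside Tcra (52427967 to 54224198), so reads between these loci may be split in a way that cannot be checked (all spans from RefSeq, GRCm38.p6). The table also has a line for each of 270 annotated receptor segments in GENCODE M21. All 265 segments on the plus strand were listed at 0 in all 12 libraries, among them the Vg4 segment (Tcrg-V4) and the constant regions Trdc, Trac, Trbc1, Trbc2 and Tcrg-C1. Of the 5 segments on the minus strand, 3 had values, namely Tcrg-C2, Trgv2 and Trdv5. The table therefore cannot show which variable segment was transcribed, and the Vg4+Vd4+ label cannot be checked on it.

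Tcrg-C2 needs particular care, because its sequence is nearly that of Tcrg-C1, the constant region joined to Vg4. The first 120 bases of the 4 gamma constant regions are shown to make this visible (GENCODE M21 transcripts, GRCm38, 5′ to 3′; capitals mark bases that differ from Tcrg-C1). They belong to Tcrg-C1 at chr13:19214103-19217024 on the plus strand, Tcrg-C2 at chr13:19304649-19307551 on the minus strand, Tcrg-C3 at chr13:19260884-19263528 on the plus strand and Tcrg-C4 at chr13:19344558-19352756 on the plus strand.
Tcrg-C1: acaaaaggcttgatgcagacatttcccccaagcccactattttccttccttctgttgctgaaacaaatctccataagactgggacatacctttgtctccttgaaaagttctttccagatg
Tcrg-C2: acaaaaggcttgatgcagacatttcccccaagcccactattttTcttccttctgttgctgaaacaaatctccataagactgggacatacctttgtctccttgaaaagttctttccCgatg
Tcrg-C3: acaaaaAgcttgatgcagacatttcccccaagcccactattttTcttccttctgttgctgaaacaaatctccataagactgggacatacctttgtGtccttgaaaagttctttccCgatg
Tcrg-C4: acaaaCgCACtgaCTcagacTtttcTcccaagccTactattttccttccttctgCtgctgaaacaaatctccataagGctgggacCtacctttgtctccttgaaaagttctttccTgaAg

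Over these 120 bases Tcrg-C2 differed from Tcrg-C1 at 2 positions, Tcrg-C3 at 4 and Tcrg-C4 at 14. The whole annotated transcripts of Tcrg-C1 and Tcrg-C2 were 94.1% identical in a global alignment, against 68.0% for Tcrg-C3 and 65.6% for Tcrg-C4. The value for Tcrg-C3 is lowered by length, since its annotated transcript has 648 bases against 924 in Tcrg-C1. In the alignment 629 of them were identical, so Tcrg-C3 is also close to Tcrg-C1 over the part that is annotated. The longest run of bases identical to Tcrg-C1 was 104 in Tcrg-C2, 122 in Tcrg-C3 and 29 in Tcrg-C4. The last 300 bases of Tcrg-C1 and Tcrg-C2, where a 3′ tag library reads, were 91.4% identical. The same measure gave 51.7% for Tcrg-C3 and 56.2% for Tcrg-C4. It sets annotated ends against each other, which for the shorter Tcrg-C3 transcript need not be matching stretches. The 51.7% therefore does not show how alike the 3′ ends of Tcrg-C1 and Tcrg-C3 are. A read from 1 of these copies can match another, so the split between the Tcrg and Tcrg-C2 lines is uncertain. When values were divided by the value of 1 read, Tcrg-C2 stood within 0.05 read of a whole number in 3 of 12 libraries. Among the CD3 chains, which have no such copy among these genes, this varied widely: Cd247 did so in 9 of 9 libraries above 0, Cd3g in 6 of 7, Cd3d in 7 of 10 and Cd3e in 2 of 7. These counts therefore do not show whether reads were shared between the gamma constant regions.

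The libraries were shallow, with an estimated 20507 to 69454 reads on genes each (median 35383). Values are normalized values, that is the deposited log2 values taken back to the linear scale. A deposited log2 value of 0, the smallest there is, was read as no value and is listed here at 0, not at 1. Tcrd and Tcrg were above 0 in all 12 libraries, as the label asks of gamma delta T cells, but Il17a was listed at 0 in all 12. All 9 chains together made up 0.712% to 0.756% of the summed value in NF-kB1-deficient imiquimod libraries and 0.341% to 0.460% in wild-type imiquimod libraries. The share was 0.558% to 0.804% in NF-kB1-deficient sham and 0.688% to 0.817% in wild-type sham libraries. The wild-type imiquimod libraries thus had the lowest shares, with no overlap with any other group. How many genes separate from all other groups in this way was not counted. Against wild-type sham alone, 10.8% of tested genes were lower without overlap. The wild-type imiquimod libraries also had the largest summed values, from 36846 to 40618, by which the shares are divided.

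**Figure D1:**
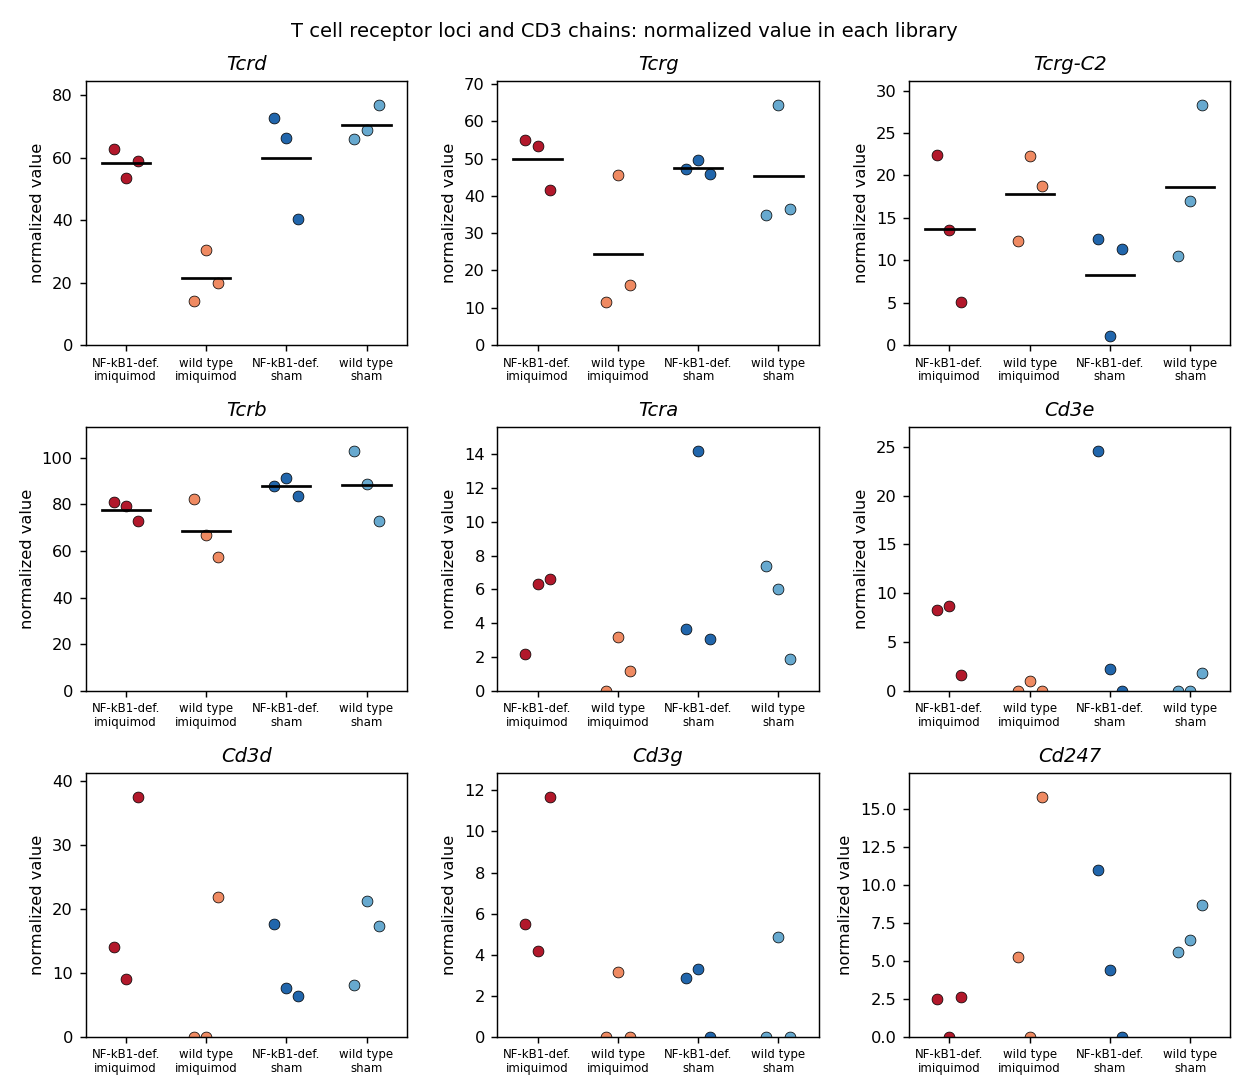
Normalized value (linear scale) of each of the 9 genes in every library, by group, with 3 points per group. Black bars are group means, drawn only for the 4 genes above 0 in every library. Tcrd in the 3 wild-type imiquimod libraries lay between 14.1 and 30.5, under every other library.

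The delta chain locus Tcrd was low in wild-type cells under imiquimod. It stood at 14.1, 30.5 and 19.8 in the wild-type imiquimod libraries, against 65.8, 68.7 and 76.8 in the wild-type sham libraries. These values rest on an estimated 10 to 29 reads per library under imiquimod and 58.8 to 141 reads in sham. All 3 imiquimod libraries were below all 3 sham libraries, which held for 10.8% of all 1571 tested genes in this direction, and the mean was 21.5 ± 8.32 in imiquimod against 70.4 ± 5.74 in sham (SD, n = 3 each).

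The log2 fold change of Tcrd in wild-type cells was -1.73 ± 0.43 (SE), with a 95% interval from -2.59 to -0.87 (limma adjusted p = 0.00906). It was the 1 call among the 6 chains tested here, where 1.59% of the tested genes were called lower. Fold changes are on the scale of log2(normalized value + 1), which understates the change of low genes. Genes with a mean of 5 or more over the 12 libraries were tested, the p-values were adjusted over all of them, and called means an adjusted p under 0.05. In bulk RNA, fewer cells that transcribe a gene and less of its RNA per cell cannot be told apart. The call was close to the threshold in several settings. It was lost without wild-type sham replicate 3 (adjusted p = 0.0536), without wild-type imiquimod replicate 1 (0.0610), with these 6 libraries fitted alone (0.0543), without the trend and robust options (0.175) and with no filter on low genes (0.299). The fold change stayed between -2.01 and -1.38 in all 20 alternative settings.

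In NF-kB1-deficient cells Tcrd was at 62.8, 53.5 and 58.9 under imiquimod, against 72.8, 66.1 and 40.3 in sham. The imiquimod values lay inside the range of the sham values. The log2 fold change was 0.01 ± 0.43, with an interval from -0.85 to 0.87 (limma adjusted p = 0.996). Between genotypes under imiquimod, every NF-kB1-deficient library was above every wild-type library, as for 10.8% of tested genes, with a log2 fold change of 1.46 ± 0.43 and an interval from 0.61 to 2.32, not called (adjusted p = 0.0510). This value lay at the threshold: it was called in 6 of the 20 alternative settings, among them a mean of at least 20 (adjusted p = 0.0190), equal library totals (0.0182) and without wild-type imiquimod replicate 2 (0.0176), and not in the other 14, up to 0.752 with no filter. Under sham it was -0.27 ± 0.43 (adjusted p = 0.978).

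The difference between the imiquimod responses of NF-kB1-deficient and wild-type mice was tested directly. For Tcrd it was 1.74 ± 0.61 on the log2 scale (interval 0.53 to 2.95, unadjusted p = 0.00523, limma adjusted p = 0.257), so a different response of the genotypes did not pass the test. It was not called in any of the 19 alternative settings, where the adjusted p ran from 0.0776 to 0.758. The comparison in wild-type cells and the comparison of genotypes under imiquimod share the 3 wild-type imiquimod libraries and are not independent.

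**Figure D2:**
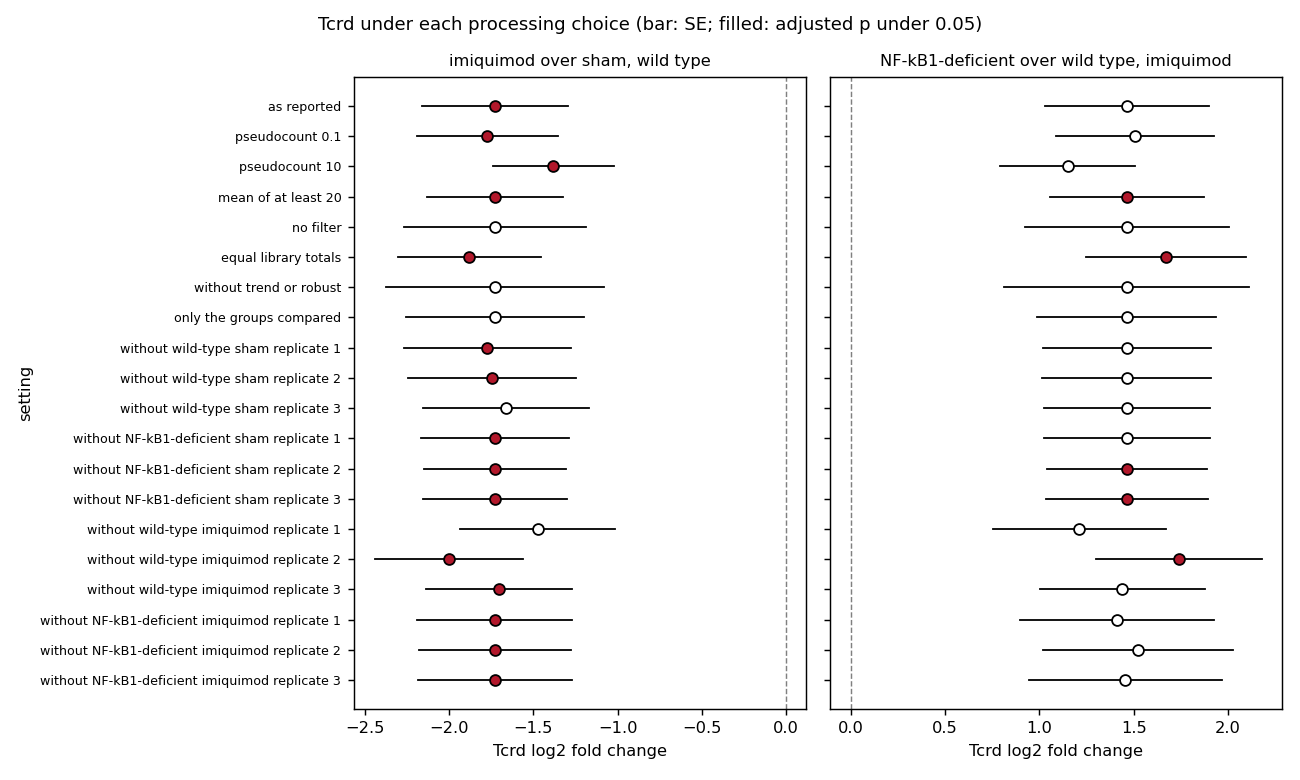
Log2 fold change of Tcrd (x axis) as reported and under the other processing choices and with each library left out (y axis), for imiquimod over sham in wild-type cells on the left and for NF-kB1-deficient over wild-type cells under imiquimod on the right. The replicate block, under which Tcrd was called in both comparisons, is not drawn. Bars are the SE and filled points have an adjusted p under 0.05; the left values run from -2.01 to -1.38 and the right values from 1.15 to 1.74.

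The gamma chain locus Tcrg had lower values in 2 of the 3 wild-type imiquimod libraries. It was at 11.5, 45.6 and 16.2 in wild-type imiquimod libraries and at 34.8, 64.4 and 36.6 in wild-type sham libraries, so the groups overlapped through wild-type imiquimod replicate 2. The log2 fold change was -1.05 ± 0.48 (limma adjusted p = 0.193). In NF-kB1-deficient cells Tcrg was at 55.1, 53.4 and 41.5 under imiquimod and at 47.1, 49.7 and 45.9 in sham, which gave 0.06 ± 0.48 (adjusted p = 0.996). Against wild-type imiquimod libraries the NF-kB1-deficient imiquimod libraries gave 1.23 ± 0.48 (adjusted p = 0.194). These values turned on single libraries. Without wild-type imiquimod replicate 2 the fold change was -1.60 in wild-type cells (adjusted p = 0.0480) and 1.79 between genotypes under imiquimod (adjusted p = 0.0338), both then called. Without wild-type imiquimod replicate 1 it was only -0.65 in wild-type cells (adjusted p = 0.490) and 0.84 between genotypes (adjusted p = 0.462), and without wild-type sham replicate 2 it was -0.77 in wild-type cells (adjusted p = 0.491). The interaction was 1.11 ± 0.68 (adjusted p = 0.587).

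Tcrg-C2, the gamma constant region on the minus strand, did not follow Tcrg. Its values were 12.3, 22.3 and 18.8 in wild-type imiquimod libraries and 10.5, 17.0 and 28.3 in wild-type sham libraries, with full overlap and a log2 fold change of 0.01 ± 0.87 (limma adjusted p = 0.997), whose sign is not fixed. It was at 22.4, 13.6 and 5.03 in NF-kB1-deficient imiquimod and at 12.5, 1.09 and 11.3 in NF-kB1-deficient sham libraries (0.85 ± 0.87, adjusted p = 0.996). The interval of the wild-type change, from -1.71 to 1.73, includes the change of Tcrg, so different changes of the 2 lines were not shown. Across the 12 libraries Tcrg-C2 had a Pearson correlation of -0.11 with Tcrg and -0.17 with Tcrd, against 0.82 between Tcrg and Tcrd, on log2 values that share library and depth.

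Tcrb, the beta chain locus, was high in every library of these gamma delta T cells. Transcription of the beta locus is known in gamma delta T cells, where it need not give a working chain. It was at 80.9, 79.5 and 72.7 in NF-kB1-deficient imiquimod libraries and at 88.0, 91.5 and 83.7 in NF-kB1-deficient sham libraries. These groups did not overlap, which held for 5.6% of tested genes in this direction, but the log2 fold change was only -0.17 ± 0.35 (limma adjusted p = 0.996). In wild-type libraries Tcrb was at 82.3, 66.7 and 57.4 under imiquimod and at 103, 88.6 and 73.0 in sham (-0.35 ± 0.35, interval -1.04 to 0.33, adjusted p = 0.606). Between genotypes it differed by 0.19 ± 0.35 under imiquimod (adjusted p = 0.840) and by 0.01 ± 0.35 under sham (adjusted p = 0.999), and the sign of the sham value changed with the library left out.

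The ratio of Tcrd to Tcrb within a library, which does not depend on the library's scaling, was 0.777, 0.673 and 0.809 in NF-kB1-deficient imiquimod and 0.172, 0.457 and 0.345 in wild-type imiquimod libraries. It was 0.827, 0.722 and 0.481 in NF-kB1-deficient sham and 0.641, 0.775 and 1.05 in wild-type sham libraries. All 3 wild-type imiquimod libraries thus had a lower ratio than the other 9, the closest values being 0.457 and 0.481. The ratio uses the Tcrd values given above and is not a separate result. How often ratios of other genes separate in this way was not counted. A 3′ tag library reads 1 fragment per transcript, so the lengths of the loci should not enter the ratio. How reads were split between Tcrd and Tcra, inside which it lies, could not be checked.

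Tcra, the alpha chain locus, was low throughout, and its mean of 4.64 kept it out of the filtered fit. With no filter Tcra was not called for imiquimod over sham in wild-type cells (-1.42 ± 1.21, limma adjusted p = 0.769). It was at 2.20, 6.29 and 6.60 in NF-kB1-deficient imiquimod and at 0, 3.16 and 1.17 in wild-type imiquimod libraries. In sham it was at 3.68, 14.2 and 3.08 in NF-kB1-deficient and at 7.38, 6.05 and 1.90 in wild-type libraries. The groups overlapped in every comparison.

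Markers of alpha beta T cells were checked beside Tcrb and Tcra. Of 8 markers, the coreceptor genes Cd8a and Cd8b1 had values, while Cd4, Foxp3, Cd40lg, Trac, Trbc1 and Trbc2 were listed at 0 in all 12 libraries, the last 3 like every other plus-strand segment. The list summed to at most 11.0 in NF-kB1-deficient imiquimod, 3.14 in wild-type imiquimod, 17.3 in NF-kB1-deficient sham and 7.08 in wild-type sham libraries, and its lowest sum was 0 in each group. Most of this was Cd8b1, at 17.3 in NF-kB1-deficient sham replicate 1. Tcrb was at 91.5 in NF-kB1-deficient sham replicate 2 and at 103 in wild-type sham replicate 1, where Cd8a and Cd8b1 were both listed at 0. The part of other T cells in the beta and alpha values was not tested.

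**Figure D3:**
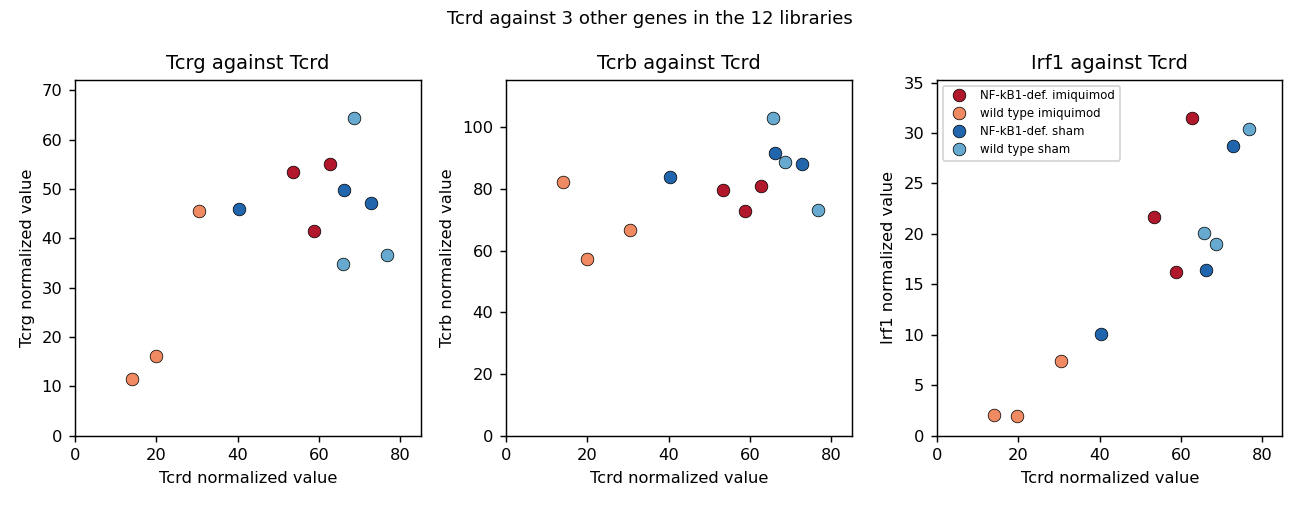
Normalized values of Tcrg, Tcrb and Irf1 (y axes) against Tcrd (x axes) in the 12 libraries, coloured by group. In the left and right panels, 2 wild-type imiquimod libraries lie at the lower left, with Tcrg at 11.5 and 16.2 and Irf1 at 2.10 and 1.98, while Tcrb in the middle panel runs only from 57.4 to 103.

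The CD3 chains were sparse. Their genes lie close together on chromosome 9 (Cd3g at 44969572 to 44980431, Cd3d at 44981769 to 44987052 and Cd3e at 44998735 to 45009663), with 1337 bases between Cd3g and Cd3d, and Cd247 lies on chromosome 1. Summed over the 4 genes they stood at 30.4, 22.0 and 53.5 in NF-kB1-deficient imiquimod and at 5.24, 4.21 and 37.6 in wild-type imiquimod libraries. In sham the sums were 56.2, 17.5 and 6.29 in NF-kB1-deficient and 13.6, 32.4 and 27.9 in wild-type libraries. Wild-type imiquimod replicates 1 and 2 had the lowest sums of all 12 libraries, but replicate 3 of that group was among the higher ones.

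Cd3d, the delta chain of CD3, had the highest mean of these 4 genes. It was listed at 0 in wild-type imiquimod replicates 1 and 2 and stood at 21.8 in replicate 3, against 8.05, 21.2 and 17.4 in wild-type sham libraries. The log2 fold change of -2.45 ± 1.03 was not called (limma unadjusted p = 0.0187, adjusted p = 0.154), and with listed zeros it depends on the pseudocount, at -4.59 with 0.1 and -0.76 with 10. In NF-kB1-deficient cells it was at 14.1, 9.08 and 37.6 under imiquimod and at 17.6, 7.66 and 6.29 in sham (0.77 ± 1.03, adjusted p = 0.996). Between genotypes under imiquimod the change was 2.67 ± 1.03 (adjusted p = 0.185). Wild-type imiquimod replicate 3, the shallowest library, decided both calls. Without it Cd3d was called in wild-type cells (-3.95, adjusted p = 0.0298) and between genotypes under imiquimod (4.18, adjusted p = 0.0294). Without replicate 1 or 2 of that group, each listed at 0, the change was -1.69 in wild-type cells and 1.92 between genotypes, with no call. The interaction was 3.22 ± 1.46 (adjusted p = 0.363).

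Cd3e and Cd3g, the epsilon and gamma chains that make up the CD3 part of the gamma delta receptor, had means of 4.03 and 2.97 and stayed under the filter. Cd3e was at 8.24, 8.73 and 1.61 in NF-kB1-deficient imiquimod libraries, and in wild-type imiquimod libraries it was at 1.05 in replicate 2 and listed at 0 in the other two. In NF-kB1-deficient sham libraries it was at 24.6 and 2.19 and listed at 0 in the third, and in wild-type sham libraries it was above 0 only in replicate 3, at 1.86. The value of 24.6 in NF-kB1-deficient sham replicate 1 was the highest of all 12, and the same library had the highest Cd8b1.

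Cd3g was at 5.51, 4.19 and 11.7 in NF-kB1-deficient imiquimod libraries, and in wild-type imiquimod libraries only replicate 2 was above 0, at 3.16. In sham libraries it was at 2.88 and 3.28 in NF-kB1-deficient replicates 1 and 2 and at 4.88 in wild-type replicate 2, and listed at 0 in the others. For Cd3e and Cd3g the NF-kB1-deficient imiquimod libraries were all above 0 and did not overlap with the wild-type imiquimod libraries. The closest pairs were 1.61 against 1.05 for Cd3e and 4.19 against 3.16 for Cd3g. These groups did not overlap in depth either, at an estimated 67043, 45957 and 51153 reads in NF-kB1-deficient and 35155, 35611 and 20507 in wild-type imiquimod libraries. The part of depth in this separation was not tested. Among the tested genes 10.8% were higher without overlap in the NF-kB1-deficient imiquimod libraries, but that set leaves out these 2 genes. With no filter neither was called between genotypes under imiquimod. Cd3e was then at 2.28 ± 1.21 (limma adjusted p = 0.752) and Cd3g at 2.23 ± 1.22 (adjusted p = 0.752). The table has no values above 0 and below 1, so in a library where a read counts for less than 1 a listed 0 can hide a read. In the wild-type imiquimod libraries a read counted for 1.05 to 1.98.

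Cd247, the zeta chain gene with the most signalling motifs per chain, passed the filter narrowly with a mean of 5.19. It was at 2.5, 0 and 2.59 in NF-kB1-deficient imiquimod and at 5.24, 0 and 15.8 in wild-type imiquimod libraries. In sham libraries it was at 11.0, 4.38 and 0 in NF-kB1-deficient and at 5.59, 6.35 and 8.69 in wild-type libraries. No comparison was called, and the intervals were wide, from -3.26 to 1.82 on the log2 scale for imiquimod over sham in wild-type cells (limma adjusted p = 0.797).

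**Figure D4:**
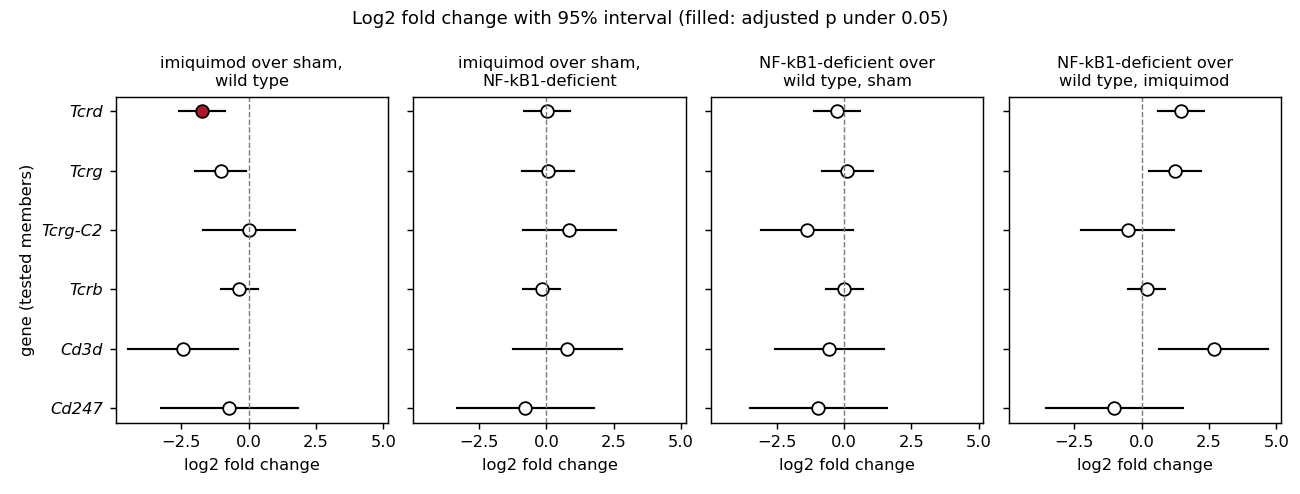
Log2 fold change with its 95% interval (x axis) for the 6 tested genes (y axis) in 4 comparisons, with filled points for an adjusted p under 0.05. Only Tcrd for imiquimod over sham in wild-type cells is filled, at -1.73.

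Counted over the chains, 6 of 9 passed the filter (Tcrd, Tcrg, Tcrg-C2, Tcrb, Cd3d and Cd247). In wild-type cells under imiquimod their median log2 fold change was -0.88, with 5 of 6 negative, beside a median of -0.07 over all tested genes. Between genotypes under imiquimod it was 0.71, beside 0.14. Limma called 0 of 6 chains for imiquimod over sham in NF-kB1-deficient cells and 0 of 6 between genotypes under sham, with 0% of all genes called and 0 chains at an unadjusted p under 0.05 in each. Between genotypes under imiquimod it called 0 of 6, where 1.78% of all genes were called. At an unadjusted p under 0.05 stood 3 of the 6 (Tcrd, Tcrg and Cd3d) and 14.3% of all genes. For the interaction it called 0 of 6, where 0.446% of all genes were called, and 2 of the 6 (Tcrd and Cd3d) and 10.8% of all genes had an unadjusted p under 0.05.

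Genes that carry the receptor signal onward were counted from a list of 35, of which 18 were tested. The list was drawn up with earlier results of these data known. In wild-type cells 3 were called lower under imiquimod and none higher, beside 1.59% of all tested genes called lower. Of the 18 fold changes 15 were negative, with a median of -1.57 beside -0.07 over all tested genes. They were Lck, the kinase that phosphorylates the CD3 tails (-3.82 ± 0.76, limma adjusted p = 0.000290), the adaptor gene Grap2 (-2.96 ± 0.77, 0.0131) and the phosphatase gene Ptpn22 (-3.64 ± 1.07, 0.0358). Lck was also called between genotypes under imiquimod (3.04 ± 0.76, adjusted p = 0.0152), the 1 call of the list there, beside 1.78% of all tested genes. There 16 of 18 were positive, with a median of 1.39 beside 0.14 over all tested genes. Ptprc, which encodes CD45, the phosphatase that keeps Lck ready to act, was not called in wild-type cells (-1.59 ± 0.51, adjusted p = 0.0628), nor was the adaptor gene Fyb (-0.29 ± 0.66, adjusted p = 0.851). No gene of the list was called for imiquimod in NF-kB1-deficient cells (median 0.05), between genotypes under sham (median -0.25) or for the interaction (median 1.62).

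A list of 18 genes of receptor assembly and receptor gene control had 9 tested members, and limma called none in any of the 5 comparisons. In wild-type cells all 9 had negative fold changes under imiquimod, with a median of -1.41 beside -0.07 over all tested genes. The transcription factor genes Ikzf1 (-1.59 ± 0.56, adjusted p = 0.0954), Bcl11b (-1.41 ± 0.52, adjusted p = 0.105) and Runx3 (-0.90 ± 0.53, adjusted p = 0.342) had the highest means. In NF-kB1-deficient cells 5 were positive and 4 negative, with a median of 0.23.

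The tested genes whose log2 values followed Tcrd most closely over the 12 libraries were Irf1, a transcription factor of the interferon response (Pearson r = 0.96), Btg1, an antiproliferative gene (0.92), Arl4c, a small GTPase gene (0.91), and the nuclear RNA Malat1 (0.91). Irf1 was at 31.5, 21.7 and 16.2 in NF-kB1-deficient imiquimod and at 2.10, 7.37 and 1.98 in wild-type imiquimod libraries. In sham it was at 28.7, 16.4 and 10.1 in NF-kB1-deficient and at 20.1, 19.0 and 30.4 in wild-type libraries. For Cd3e the closest were Cd52, Igfbp4, Atf7ip and Mapre1, with r from 0.72 to 0.80, over libraries of which 5 had Cd3e at 0. These 12 points share depth and group, so the correlations are descriptions of the libraries.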

How the data were processed

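The authors deposited 1 table of log2 normalized counts for 45796 genes and 12 libraries, made with the QuantSeq 3′ FWD kit from Trizol RNA, per the labels' protocols. Per the submitters' processing notes, reads were placed on mm10. Not given in the sources used here are the aligner, counting program, strand setting, annotation and method of normalization. Columns were matched by sample title. Values were taken back to the linear scale, with a log2 value of 0 set to 0. The steps between low values gave the value of 1 read per library (0.488 to 1.98), but only 71.0% to 80.2% of values under 20 reads came out whole to within 0.01, so no count test was run. Depths are therefore estimates.

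Log2(normalized value + 1) of the 1571 genes with a mean of at least 5 was fitted with limma 3.58.1 in R 4.3.3, with 1 coefficient per group and eBayes with trend and robust set, and Benjamini-Hochberg adjustment over all 1571 genes. The eBayes step had a median of 145.1 prior degrees of freedom beside 8 residual ones. For most genes the variance thus came mainly from other genes of like mean. Without the trend and robust options the SE of Tcrd for imiquimod over sham in wild-type cells was 0.65, against 0.43 as reported. The test was also run on simulated counts with the same dispersion for every gene, and no call here rests on that run. The chains, gene lists and tests were chosen with earlier results of these data known. Genes were named by a rule: all 9 chains, the called and the 3 highest members of each list, and the 4 genes most correlated with Tcrd and with Cd3e. Alternatives were pseudocounts of 0.1 and 10, a mean of at least 20, no filter, equal totals, no trend or robust options, the compared groups alone, a replicate block, and each library left out. Spans come from RefSeq (GRCm38.p6) and sequences from GENCODE M21, aligned with Biopython 1.88.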

Additional observations from a re-analysis of the deposited data

How the results depend on the processing

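In wild-type cells under imiquimod 1 of the 9 chains was called as reported. The number was 0 with no filter, 0 without trend or robust and 0 in a fit of the groups compared alone, and it ran from 0 to 2 with 1 library left out. Between genotypes under imiquimod, where 0 were called as reported, 1 (Tcrd) was called with a mean of at least 20, 1 with equal library totals and 1 with the replicate block (adjusted p = 0.0464), and the number ran from 0 to 2 with 1 library left out. Besides the libraries named above, leaving out NF-kB1-deficient sham replicate 2 (adjusted p = 0.04995) or replicate 3 (0.0484) made this call of Tcrd, and so did leaving out wild-type imiquimod replicate 2 (0.0176). The labels do not say whether the replicate numbers pair the libraries. Deviations from the group means of same-numbered libraries correlated at -0.01 to 0.06 over 18 pairs (median 0.016). For the 36 pairs with different numbers the range was -0.06 to 0.04 (median -0.004). Of the 12 libraries 9 correlated best with one of their own number, so a weak pairing was not settled. The block changed no other call of a chain. Equal totals moved the median log2 fold change of all genes by -0.13 in wild-type cells, and Tcrd was then at -1.88.

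Small fold changes changed sign. With equal totals Tcrg-C2 under imiquimod in wild-type cells was -0.14, pseudocount 10 gave -0.0092, and the interaction of Cd247 was 0.0396 with equal totals and 0.80 with a pseudocount of 0.1. With 1 library left out, imiquimod in wild-type cells ran from -0.32 to 0.35 for Tcrg-C2 and from -1.64 to 0.40 for Cd247. In NF-kB1-deficient cells it ran from -0.25 to 0.17 for Tcrd, -0.0133 to 0.19 for Tcrg, -0.0197 to 1.39 for Tcrg-C2 and -1.79 to 0.0045 for Cd247. Between genotypes under sham the range was -0.0309 to 0.40 for Tcrg, -0.12 to 0.12 for Tcrb and -1.74 to 0.0498 for Cd247, and under imiquimod -0.96 to 0.0130 for Tcrg-C2. The interaction ran from -0.0270 to 1.39 for Tcrg-C2 and from -1.19 to 0.85 for Cd247. For the settings that change no library, the cause was not tested. Depth limits the sparse chains most: Cd3e and Cd3g rest on few or no reads in most libraries.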

Other observations

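Besides Tcrg-C2, the receptor segments with a value were Trgv2 and Trdv5, both on the minus strand. Trgv2, a gamma variable segment that lies beside the Tcrg-C2 cluster, was at 4.55, 4.46 and 4.38 in NF-kB1-deficient imiquimod and at 2.10, 3.68 and 0 in wild-type imiquimod libraries. In sham it was at 1.84, 0 and 0 in NF-kB1-deficient and at 0, 3.54 and 3.42 in wild-type libraries. Trdv5, the delta variable segment that lies downstream of Trdc in inverted orientation, was listed at 0 in all 6 imiquimod libraries. In sham it was at 10.1 in NF-kB1-deficient replicate 3 and at 2.80 and 2.44 in wild-type replicates 1 and 2. Both means were under the filter, so neither segment was in the filtered fit. The ratio of Tcrd to Tcrg ran from 1.0 to 1.42 in NF-kB1-deficient imiquimod and from 0.669 to 1.23 in wild-type imiquimod libraries, against 0.877 to 1.54 in NF-kB1-deficient sham and 1.07 to 2.10 in wild-type sham libraries, so the groups overlapped in each comparison.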
